A study of Mus musculus with 2 samples.

Results

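Mature CCR7 dendritic cells (DCs) of the spleen were examined in 2 single-cell RNA sequencing libraries, and they numbered 2639 of 19339 cells. A cell was chosen by its unique molecular identifiers (UMIs, counts of single captured mRNA molecules). It had at least 4 UMIs of Ccr7, Fscn1, Socs2 and Cacnb3 together, at most 1 UMI of the cDC1 genes Cadm1, Clec9a, Xcr1 and Cd8a together, fewer than 5 UMIs of the plasmacytoid DC gene Siglech, and fewer than 4 UMIs of the proliferation genes Top2a, Mki67, Birc5 and Pclaf together. These cells are called members below. They comprised 1493 of 7814 cells in the WT library and 1146 of 11525 cells in the cit library.

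Each library came from 3 pooled naive female mice aged 4 months. The first pool was homozygous for the wild-type H2-Aa allele (WT) and the other for the citation allele (H2-Aa cit/cit, here cit), a germline mutation predicted to impair splicing of H2-Aa, so that every cell type of the cit mice carried it. The authors reported the allele as effectively null, without detectable mature H2-Aa mRNA or MHC class II protein in splenocytes of such mice. Live CD45.2+ CD11c+ splenocytes were sorted after positive selection on CD11c, and 3′ gene expression libraries were prepared from them. With 1 library per genotype, genotype, pool of mice and library cannot be told apart, there is no replicate check, and no test was made. All intervals given below are 95% intervals that cover counting error only.

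Conventional DCs sample their surroundings while immature and, on maturation, reduce uptake, raise costimulatory molecules and the chemokine receptor CCR7, and migrate toward the T cell zone, where CCR7 ligands are made. The same programme is entered under infection and, in a homeostatic form, in unchallenged animals, with NF-κB signaling as a known component. It is shared by cDC1, which specialize in cross-presentation to CD8 T cells, and cDC2, which favor CD4 T cells. H2-Aa encodes the α chain of I-A, the classical MHC class II molecule that pairs with the β chain encoded by H2-Ab1.

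H2-Aa was read first as a check of the labels. In members, H2-Aa stood at 4071 CPM (UMIs summed over the members of a library and scaled to 1000000) in WT and at 52.1 CPM in cit, a log2 ratio of -6.29 (interval -6.44 to -6.14). Resting cells, defined below, gave 6788 and 81.0 CPM. The library labelled cit thus held little H2-Aa mRNA in either class, and the WT library held much.

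The 2 libraries held 51020804 and 72652201 UMIs, of which members held 9833875 in WT and 6834006 in cit. The median member had 6306 UMIs and 2385 genes in WT, and 5202.5 UMIs and 2139 genes in cit. The deepest single member held 24589 UMIs in WT and 72463 in cit. Mitochondrial UMIs took a median of 1.25% of a WT member and 1.37% of a cit member, and ribosomal protein UMIs 8.09% and 11.0%. Cit members were therefore shallower and richer in ribosomal protein UMIs. The libraries shared 31 barcodes, 5 of them WT members and 3 of them cit members. Leaving these out left the share of members in both libraries within its interval.

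In the WT library 19.1% of cells were members (interval 18.2 to 19.996%), and in the cit library 9.94% (9.40 to 10.5%). The share in cit was 0.52 times that in WT, a difference of -9.16 percentage points (-10.2 to -8.14). Under 12 other ways to choose members or cells counted, the cit share was 0.38 to 0.61 times the WT share. A share of sorted cells depends on what else the sort held, and a smaller number of mature cells cannot be told apart from a larger number of other cells. Mature cells carrying 2 or more UMIs of the cDC1 genes were 389 cells in WT (4.98%) and 80 cells in cit (0.69%), a difference of -4.28 points (-4.81 to -3.79).

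The 4 genes of the rule were high by construction and are given as a description. Ccr7, the chemokine receptor that guides mature DCs, was at 925 CPM in WT members and 878 CPM in cit members. Fscn1, the actin bundling protein fascin of mature DC dendrites, was at 972 and 719 CPM. Socs2, an inhibitor of cytokine receptor signaling, was at 550 and 444 CPM. Cacnb3, a β subunit of voltage-gated calcium channels, was at 461 and 315 CPM. Among all members cit was lower for each of the 4, by -0.08 log2 units for Ccr7 and by -0.55 for Cacnb3, the ends of their range, and each stayed under a 1.5-fold difference. The direction of Ccr7 was not fixed. Without the members over the limit given below its log2 ratio was 0.02 (-0.04 to 0.07). In 4 ranges of the sum of these 4 genes, described below, it was 0.13, 0.16, 0.24 and 0.19. Ccr7 is part of that sum, and Fscn1, another part, was lower in cit in each range. The Ccr7 ratios by range are therefore not independent of the cut and do not show its direction.

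Ccl22, a chemokine that attracts T cells bearing CCR4 and the fifth marker of the class, was not used by the rule. It stood at 35.6 CPM in WT members (interval 32.0 to 39.5) and 17.9 CPM in cit members (14.8 to 21.3), against 1.44 and 0.19 CPM in resting cells. Few members carried it. A Ccl22 UMI was present in 115 WT members (7.70%) and 46 cit members (4.01%), and single cells held up to 55 and 23 UMIs. After each cell was thinned to 1500 UMIs, 3.22% of WT members (2.37 to 4.26%) and 1.41% of cit members (0.81 to 2.29%) had a Ccl22 UMI, against 0.43% and 0.03% of resting cells and 0 of 116 and 0 of 123 cells with 5 or more Siglech UMIs, for which counts of 0 give exact upper limits of 3.13% and 2.95%. In mature cells with cDC1 genes, described below, Ccl22 was above its level in members, at 135 CPM in WT and 44.2 CPM in cit, and 14.9% and 5.0% of them had a UMI after thinning. Thinning left out 32 WT and 15 cit members.

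The starts of 3 of the 5 marker genes had an entry in the RefSeq promoter table used (build GRCm38.p6), and the 250 bases before each are shown. Fscn1 and Cacnb3 were high by the rule, and few members carried Ccl22. Capitals mark a match, on either strand, to GGNNTTTCC (part of NF-κB sites), TTCNNNGAA (STAT sites) or GAAANNGAA (part of interferon response elements). Cacnb3 has 2 starts in the table, of which the one with a match is shown.
Fscn1, chr5:142960105-142960354, plus strand: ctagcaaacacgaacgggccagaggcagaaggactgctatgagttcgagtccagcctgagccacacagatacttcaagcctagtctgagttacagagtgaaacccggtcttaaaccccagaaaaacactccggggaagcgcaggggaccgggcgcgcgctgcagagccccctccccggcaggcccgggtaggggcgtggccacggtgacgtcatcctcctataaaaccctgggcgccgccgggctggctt
Cacnb3, chr15:98632078-98632327, plus strand: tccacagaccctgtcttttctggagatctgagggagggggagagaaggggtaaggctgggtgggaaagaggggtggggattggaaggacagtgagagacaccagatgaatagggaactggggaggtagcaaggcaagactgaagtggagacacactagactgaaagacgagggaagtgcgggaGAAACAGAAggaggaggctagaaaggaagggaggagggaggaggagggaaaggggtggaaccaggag
Ccl22, chr8:94745434-94745683, plus strand: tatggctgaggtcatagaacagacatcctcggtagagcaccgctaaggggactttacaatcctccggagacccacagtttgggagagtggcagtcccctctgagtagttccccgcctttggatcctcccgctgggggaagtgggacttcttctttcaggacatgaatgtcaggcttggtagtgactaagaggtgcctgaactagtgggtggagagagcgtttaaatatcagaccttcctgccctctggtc
A single match was found among these windows, a GAAANNGAA that began 67 bases before the first start of Cacnb3. In the same window of 27025 genes, GGNNTTTCC was present before 5.62%, TTCNNNGAA before 8.13% and GAAANNGAA before 8.18%. The genes lie at chr5:142960343-142973185 (Fscn1), chr15:98630840-98644529 (Cacnb3) and chr8:94745590-94751699 (Ccl22), all on the plus strand, and at chr11:99144196-99155077 (Ccr7) and chr10:95385362-95417180 (Socs2) on the minus strand in GENCODE vM21. A match is a description of letters and does not show that a factor binds there.

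To describe the maturation programme across genes, members were set against resting cells of the same library. Resting cells had no UMI of the 4 maturation genes, at most 1 of the cDC1 genes, and at least 1 UMI each of Sirpa and Ffar2, which mark cDC2-type cells. They numbered 1175 in WT and 3147 in cit. Of 9138 genes with at least 10 CPM in either class of either library, 977 (10.7%) were at least 2-fold higher in members in both libraries and 940 (10.3%) were at least 2-fold lower in both. All genes of a cell were measured together with the genes of the rule, so these counts describe the class and are not independent of how it was chosen. The shares of 10.7% and 10.3% are those to set beside each list count of the programme below. The median gene was at a log2 ratio of -0.21 in WT and -0.15 in cit. Scaling by the median ratio moved all genes by 0.20 and 0.09 log2 units and gave 1137 genes higher and 797 lower.

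**Figure D1:**
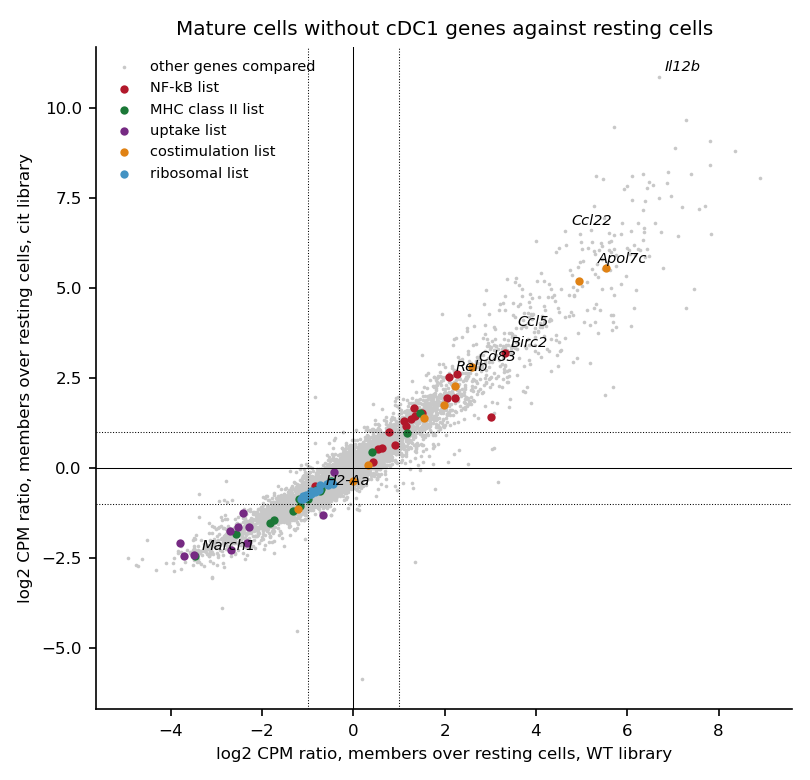
Each point is 1 of the genes compared (those without UMIs in a class are not drawn); the axes give the log2 CPM ratio of members over resting cells in the WT library (horizontal) and in the cit library (vertical), and dotted lines mark 2-fold. NF-κB genes such as Relb and Birc2 sit in the upper right in both libraries, and uptake and MHC class II genes sit mostly in the lower left.

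Outside the genes of the rule, several genes of the programme were low in resting cells. Apol7c, an apolipoprotein L family member, was at 1305 CPM in WT members and 1226 in cit members against 34.8 and 26.6 in resting cells. Ankrd33b, an ankyrin repeat protein, was at 594 and 459 CPM against 1.79 and 1.02. Anxa3, a calcium-dependent phospholipid-binding annexin, was at 864 and 624 CPM against 22.1 and 10.2. Each of these 3 genes was more than 5 log2 units higher in members than in resting cells of the same library. Gadd45b, a stress response protein, was at 939 and 855 CPM against 23.9 and 20.3, and Cd63, a tetraspanin of late endosomes, was at 396 and 357 against 9.09 and 6.42.

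Other genes among the 20 with the highest ratios encode membrane proteins and signaling molecules. Slco5a1, an organic anion transporter family member, was at 898 CPM in WT and 775 in cit. Prnp, the prion protein, was at 171 and 158 CPM, the phospholipase Pla2g4f was at 157 and 168, and the G protein subunit Gnb4 was at 212 and 194. Each of these stood below 30 CPM in resting cells of either library, and WT and cit members differed by less than 1.5-fold. Dkk2, a secreted Wnt inhibitor, Atxn1, Dscaml1 and Slc22a23 also belonged to the 20 and were at least 1.5-fold lower in cit than in WT members. Dkk2 was at 680 CPM in WT members and 315 in cit members, and Atxn1, a transcriptional regulator, at 786 and 427. Once the members rich in genes of mature cells with cDC1 genes were left out (the limit is given below), Dkk2 kept a log2 ratio of -1.27, whereas Atxn1 (-0.42), Dscaml1 (-0.56) and Slc22a23 (-0.41) were under 1.5-fold. The 20 also held 2 genes without a gene name and 1 whose symbol occurs more than once, which are not described here.

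**Figure D2:**
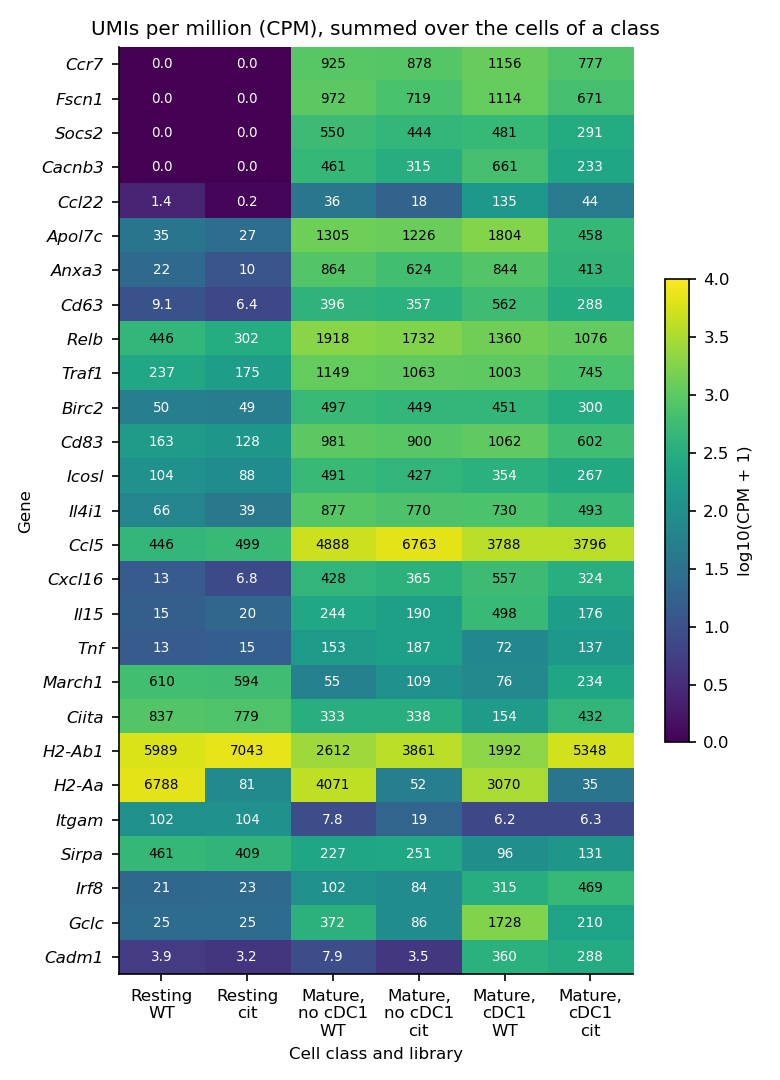
Rows are genes and columns are 3 cell classes in 2 libraries; numbers are CPM and colors are log10(CPM + 1). Relb, Cd83, Icosl, Il4i1 and Ccl5 were higher in both mature classes than in resting cells in either library, H2-Aa was low in every cit column, and Gclc was at 1728 CPM in the WT mature cells with cDC1 genes against 372 in WT members.

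Migration genes accompanied Ccr7. Of 13 further genes of the migration list that were compared, 9 were at least 2-fold higher in members in both libraries and 1, the integrin subunit Itgb2, was lower. Marcksl1, an actin regulator, was at 571 and 483 CPM in WT and cit members against 40.3 and 29.7 in resting cells. Icam1, an adhesion molecule, was at 460 and 467 CPM against 116 and 139, and Gpr183, the oxysterol receptor that positions DCs in the spleen, was at 678 and 700 against 279 and 246. Adam8, a sheddase, was at 184 and 159 CPM against 37.0 and 28.6. The median log2 ratio of the list was 1.77 in WT and 1.74 in cit, where the median over all genes compared was negative.

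Costimulatory genes were mostly higher in members, 6 of 9 in both libraries against 1 lower, with a median of 1.98 in WT and 1.74 in cit. Cd83, a maturation marker that stabilizes surface MHC class II and CD86, was at 981 CPM in WT and 900.5 in cit against 163 and 128 in resting cells. Icosl, the ligand of ICOS, was at 491 and 427 against 104 and 87.5. Cd40, the receptor for T cell help, was at 181 and 171 CPM against 62.1 and 64.8. In contrast, Cd86, a ligand of CD28 and CTLA-4, did not reach 2-fold, with 205 and 183 CPM in members and 165 and 171 in resting cells. Cd80, the other ligand of CD28, stood at 147 CPM in both WT classes and at 91.0 CPM in cit members against 116 in cit resting cells.

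Genes with regulatory functions toward T cells moved in both directions. Of 13 genes of the checkpoint list, 6 were higher in members in both libraries and 3 were lower. Among all genes compared the shares were 10.7% higher and 10.3% lower. Il4i1, a secreted amino acid oxidase, was at 877 and 770 CPM against 65.7 and 39.2 in resting cells. Cd200, a ligand of an inhibitory receptor, was at 187 and 128 CPM against 3.59 and 1.44, and Fas, the death receptor, was at 149 and 115 against 2.27 and 1.72. Cd274, which encodes PD-L1, was at 345 and 280 CPM against 167 and 157, log2 ratios of 1.05 in WT and 0.84 in cit, so that it passed 2-fold in WT members and not in cit members. Havcr2, which encodes TIM-3, was lower in members at 43.2 and 82.97 CPM against 301 and 298.

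Most NF-κB genes were higher in members. Of 18 genes listed, 12 were at least 2-fold higher in members in both libraries, none was lower, and the median log2 ratio was 1.30 in WT and 1.39 in cit. Relb, the transcription factor of the noncanonical pathway, was at 1918 CPM in WT members and 1732 in cit members against 446 and 302 in resting cells. Traf1, a signaling adaptor, was at 1149 and 1063 CPM against 237 and 175. Birc2, a ubiquitin ligase of the pathway, was at 497 and 449 CPM against 49.9 and 49.3. The inhibitor Nfkbia was at 792 and 703 CPM against 328 and 275, while Nfkb1 did not pass the fold and was lower in members, at 405 and 445 CPM against 727 and 633. No gene of this list was 1.5-fold apart between WT and cit members.

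The NF-κB list had a promoter entry for 15 of its 18 genes, and GGNNTTTCC was found in the 250 bases before a start of 6 of them: Bcl3, Tnfaip3, Rel, Nfkbia, Tnfaip2 and Nfkb2. Several of these genes encode inhibitors or subunits of NF-κB itself. A site of 5 of them is shown with up to 10 bases on each side, the match in capitals as read on the strand of the gene, where a match on the other strand reads GGAAANNCC. Dkk2, the 1 of the 10 top programme genes with an entry that held the motif, is given last. The sites were picked after the levels were known.
Nfkbia, chr12:55492807-55492835, minus strand: ctggtcgggaGGACTTTCCagccactcag
Tnfaip3, chr10:19015416-19015444, minus strand: tcacgtgactGGAATTTCCatcggaaatc
Rel, chr11:23771042-23771070, minus strand: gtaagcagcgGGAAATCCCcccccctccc
Bcl3, chr7:19822841-19822869, minus strand: cgcgggtccaGGAAACCCCtggggcggac
Nfkb2, chr19:46305696-46305724, plus strand: ggtattttcgGGACTTTCCtaagcagcac
Dkk2, chr3:132085229-132085257, plus strand: tgggggcggaGGAAAACCCactgaggaaa
Over the whole programme, GGNNTTTCC was present before 71 of 739 genes higher in members (9.61%) and before 48 of 737 genes lower in members (6.51%), where 475 of 7230 genes compared (6.57%) held it. GAAANNGAA was present before 9.47% of the higher genes, 12.2% of the lower genes and 8.02% of the genes compared. The shares are descriptions, since genes are not independent replicates.

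Chemokines and cytokines of members were carried by few abundant genes and several rare ones. Ccl5, which attracts T cells and is also expressed by NK cells, was at 4888 CPM in WT members and 6763 CPM in cit members against 446 and 499 in resting cells. Cxcl16, a transmembrane chemokine, was at 428 and 365 CPM against 13.2 and 6.79. Ccl17, which shares its receptor with Ccl22, gave 4 UMIs in WT members and 43 in cit members, 31 of them in 1 cell. Of 9 chemokines compared, 5 were higher in members in both libraries and 1 was lower.

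Of 11 cytokine genes, 7 were at least 2-fold higher in members in both libraries and none was lower. Il15, which sustains NK and memory CD8 T cells, was at 244 and 190.1 CPM against 15 and 20, and its presenting receptor Il15ra was at 168 and 109 CPM against 11.5 and 14.6. Tnf was at 153 and 187 CPM against 13.2 and 14.8. Il12b, which encodes the p40 subunit of IL-12 and IL-23, was at 98.8 and 86.0 CPM against 0.96 and 0.05, and a UMI of it was seen in 12.8% of WT members and 9.42% of cit members. It stood at 383 and 717 CPM in the members over the limit given below and at 38.9 and 27.8 CPM in the others. Il12b is itself of set A, the genes that chose the members over that limit, so this contrast is not independent of that choice. Il1b did not differ by 2-fold, with 102 and 129 CPM in members and 133 and 110 in resting cells.

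Among 15 genes of JAK-STAT signaling that were compared, 5 were higher in members in both libraries and none was lower. The shares over all genes compared, 10.7% higher and 10.3% lower, apply here and to the survival genes next. Il7r was at 115 and 106 CPM against 9.21 and 4.51, and Stat5a at 95.9 and 91.5 against 33.7 and 33.9. Of 15 survival genes, 5 were higher and 1, Bcl2, was lower, at 9.36 and 10.5 CPM against 33.2 and 39.8. Bcl2l11, which encodes the proapoptotic protein BIM, was at 120 and 96.6 CPM against 16.03 and 18.4. Serpinb9, an inhibitor of granzyme B, was at 159 and 76.2 CPM against 8.1 and 8.0.

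MHC class II genes pointed the other way. Of 15 listed, 6 were at least 2-fold lower in members in both libraries and 1 was higher, and the median log2 ratio was -0.98 in WT and -0.87 in cit. March1, the ubiquitin ligase that turns over surface MHC class II and CD86, was at 55.3 and 109 CPM in members against 610 and 594 in resting cells. Ciita, the master regulator of the class II genes, was at 333 and 338 CPM against 837 and 779. The peptide loading genes H2-DMa and H2-DMb1 and the modulators H2-Oa and H2-Ob were the other 4. H2-Ab1 was at 2612.5 and 3861 CPM against 5989 and 7043, and Cd74, the invariant chain, was at 9513 and 10687 against 15438 and 16020. Neither was 2-fold apart in both libraries. H2-Eb2 was the gene that was higher, at 379 and 397 CPM against 138 in both.

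Class I genes were higher or level. Of 19 compared, 6 were at least 2-fold higher in members in both libraries and none was lower. Nlrc5, the class I transactivator, was at 475 and 387 CPM against 88.3 and 109, and H2-M2, a nonclassical class I gene, was at 905 and 693 against 80.1 and 28.8. The classical genes H2-K1 and H2-D1 stayed below 2-fold, with H2-K1 at 1959 and 2122 CPM against 1032 and 1360. Near-identical class I sequences such as H2-Q6 and H2-Q7 can share reads, so their values are uncertain.

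Uptake receptors were mostly lower in members. Of 11 genes compared, 9 were at least 2-fold lower in members in both libraries and none was higher, and the median was -2.52 in WT and -1.74 in cit. Itgam, the integrin subunit CD11b, was at 7.83 and 19.3 CPM in members against 102 and 104 in resting cells. Cd209a, a C-type lectin, was at 8.64 and 38.6 CPM against 121 and 164, and Clec4a4, the lectin DCIR2, was at 17.2 and 27.2 against 112 and 91.0. The resting cells were selected on cDC2-type genes, and the comparison holds for that class of resting cell.

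Among transcription factors of DCs, 8 of 23 were higher in members and 5 were lower in both libraries. All genes compared gave 10.7% higher and 10.3% lower. Etv3, an ETS family repressor, was at 1163 and 988 CPM against 88.3 and 63.7, Id2 at 673 and 491 against 155 and 176, and Batf3, a factor of cDC1 development, at 354 and 349 against 166 and 158. Bcl11a was lower, at 122 and 185 CPM against 692 and 666. Zbtb46, which marks conventional DCs, was level at 296 and 280 CPM in members and 283 and 275 in resting cells. Irf4, of cDC2, was at 64.9 and 50.6 CPM against 62.4 and 50.7. Bank1 and Entpd1 were among the 10 genes with the lowest ratios, with Bank1, a signaling scaffold, at 6.10 and 14.8 CPM against 92.3 and 106.

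In the remaining lists, 5 of 16 cholesterol genes, 3 of 21 interferon-stimulated genes and 5 of 20 immediate early genes were higher in members in both libraries, and 1, 8 and 5 were lower. Over all genes compared, 10.7% were higher and 10.3% lower, so 3 of 21 is close to that share. The guanylate-binding protein genes Gbp2, Gbp4 and Gbp5 were the 3 interferon-stimulated genes that were higher. Of 24 genes of protein folding in the endoplasmic reticulum (ER), none was higher and 2 were lower, and of 20 ribosomal protein genes none passed in either direction. The ribosomal median was -0.85 in WT and -0.64 in cit.

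Members were then compared between the genotypes, the question the 2 libraries address. Of 8402 genes with at least 10 CPM in members of either library, 492 (5.86%) were at least 1.5-fold higher in cit and 321 (3.82%) at least 1.5-fold lower, and the median log2 ratio was 0.03. A call here means past the fold and no more, since neither library has a replicate. At 2-fold, 136 genes were higher and 90 lower. A gene under the minimum level in 1 library is compared through the other alone and can then differ in 1 direction only. Under the 2 strictest choices of members, which left 269 WT and 241 cit members or 112 and 61, the direction turned for 20 called genes named in the text or in the lists: Bcl11a, Cd300a, Clec4a2, Ctnnd2, Cxcl9, Cxcl10, Entpd1, Havcr2, Ifi47, Il18, Il2ra, March1, Ptpre, Pvr, Socs1, Stat4, Stmn1, Tnfrsf4, Wdfy4 and Zfp36.

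**Figure D3:**
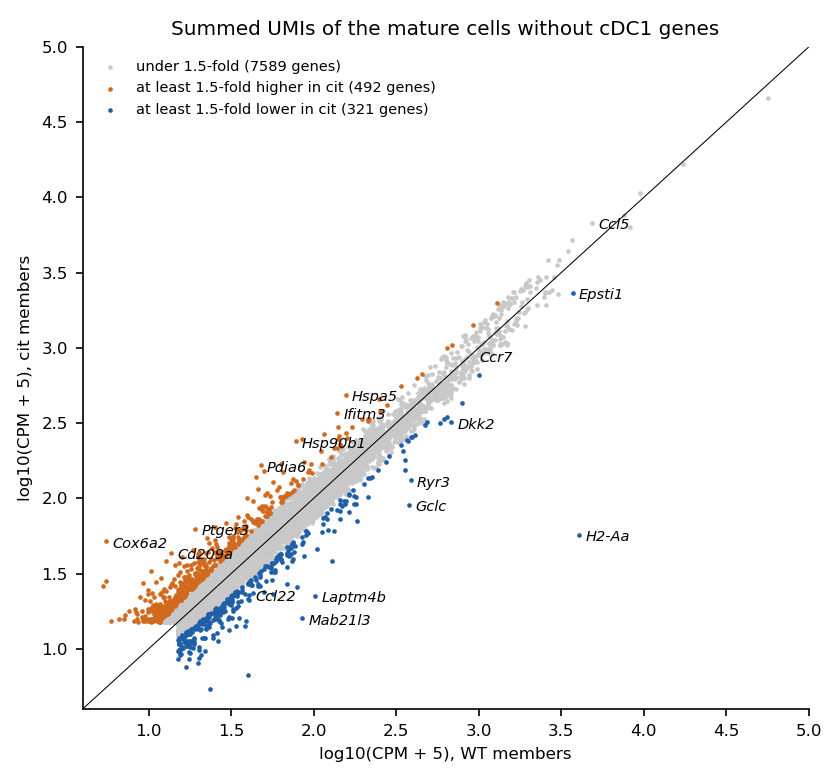
Each point is 1 of 8402 genes; axes give log10(CPM + 5) of WT members (horizontal) and cit members (vertical), the line marks equal levels and colors mark calls at 1.5-fold. H2-Aa lies far below the line, the ER chaperone genes Hspa5, Hsp90b1 and Pdia6 lie above it, and Ccr7 lies on it.

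Among the same lists, ER folding genes held the most calls. Of 24 genes, 19 were at least 1.5-fold higher in cit members and none was lower, with a median log2 ratio of 0.88. The shares over all genes compared were 5.86% higher and 3.82% lower. Nucb2 (4.27 and 22.4 CPM), Hyou1 (5.29 and 27.8) and Creld2 (7.83 and 33.2) were under 10 CPM in WT members and were compared through cit members alone. The median of 0.88 includes them. Hspa5, which encodes the chaperone BiP, stood at 151 CPM in WT and 483 in cit, a log2 ratio of 1.67 (1.59 to 1.76). Hsp90b1, the chaperone GRP94, was at 72.8 and 235 CPM (log2 ratio 1.69, 1.56 to 1.82). Pdia6, a disulfide isomerase, was at 42.8 and 161 CPM (1.91, 1.75 to 2.08). Manf and Sdf2l1, a secreted and a luminal ER protein, had log2 ratios of 1.71 and 1.51. These 5 genes made up 5 of the 10 highest ratios of the comparison.

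The same genes were higher in cit outside the members. In resting cells, 23 of the 24 ER folding genes were at least 1.5-fold higher in cit and none was lower, with a median of 1.15 over the same genes. Over all 8499 genes compared in resting cells, 222 were higher in cit and 203 lower. Hspa5 stood at 239 CPM in WT and 852 in cit resting cells, and at 159 and 1201 CPM in mature cells with cDC1 genes. The list was therefore higher in cit both in mature and in resting cells. Whether genotype, the pool of mice or handling of the library gave it was not tested. Without the members of highest Scrublet doublet score, 16 of the list's genes were called higher.

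Ptger3, Gpr141, Plac8, Ctnnd2 and Ifitm3 had the other 5 of the 10 highest ratios. They were picked by their ratio and belong to no common list, and Ptger3, Gpr141 and Ctnnd2 reached the 50 CPM asked of these genes in cit members alone, as did Manf and Pdia6. Ptger3, a prostaglandin E2 receptor, was at 14.2 CPM in WT members and 57.7 in cit members (log2 ratio 2.02, 1.74 to 2.31), against 100.5 and 143 CPM in resting cells. Gpr141, an orphan receptor, was at 39.9 and 133 CPM against 453 and 646, Plac8 at 79.6 and 242 against 631 and 985, and Ctnnd2 at 34.5 and 95.3 against 522 and 532. Ifitm3, an antiviral membrane protein, was at 134 and 367 CPM against 764 and 1179. Ctnnd2 had a log2 ratio of -0.86 in the uppermost range of the maturation sum, and its sign also turned with at most 1 UMI of further cDC1 genes (-0.31). In every one of these 5 genes the members of both libraries stayed below the resting cells of the same library.

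Uptake receptors, which were low in members, were compared next. Over all genes compared in members, 5.86% were higher in cit and 3.82% lower. Of 9 genes compared, 7 were at least 1.5-fold higher in cit members and none was lower, with a median log2 ratio of 1.30, whereas the same genes had a median of 0.29 in resting cells. There 4 of 11 uptake genes were higher, where 222 of all 8499 genes compared were higher and 203 lower. Cd209a (log2 ratio 2.16, 1.80 to 2.53), Fcgr2b, an inhibitory Fc receptor (1.72, 1.09 to 2.38), and Clec4a1 (1.54, 1.29 to 1.79) had the highest ratios. These are low levels in members, with 8.64 and 38.6 CPM for Cd209a. Of the 7 genes, Cd209a, Fcgr2b, Clec4a2 and Itgam were under 10 CPM in WT members and were compared through cit members alone, so that they had to be higher there. The median of 1.30 includes them, and 3 of the other 5 genes were called. The count was 4 of 6 genes compared without the members of highest Scrublet score, which took 109 WT members (7.30%) and 158 cit members (13.8%). Cd209a was at 12.7 and 77.0 CPM in the lowest of 4 ranges of the maturation sum and at 3.25 and 7.42 CPM in the highest, and cit was higher in each of the 4, by 0.72 to 2.605 log2 units. Clec4a4, another of the 7, had a log2 ratio of 0.66 among all members and of 0.55, under 1.5-fold, without the members over the limit given below.

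Interferon-stimulated genes were higher for 9 of 19 in cit members and lower for none, with a median of 0.49. Among all genes compared in members, 5.86% were higher and 3.82% lower. Isg20, an exonuclease, was at 4.47 and 16.2 CPM, Oasl2 at 15.4 and 38.8, and Irf7, a regulator of type I interferon, at 10.6 and 22.7. Of the 9, Isg20, Ifi47 (8.75 and 15.2 CPM) and Ifit3 (9.66 and 17.9 CPM) were under 10 CPM in WT members and were compared through cit members alone. The median of 0.49 includes them. In resting cells 11 of 21 genes of this list were higher and none was lower, where 222 of all 8499 genes compared were higher and 203 lower. More abundant genes of the list, Gbp5 at 150 and 157 CPM and Usp18 at 131 and 130 CPM, were level. None of the 9 calls was made among genes of at least 50 CPM.

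Of 9 chemokines, 4 were higher in cit members, and Ccl22 was lower with a log2 ratio of -0.995 (-1.30 to -0.69). All genes compared in members gave 5.86% higher and 3.82% lower. Cxcl9 and Cxcl10, the interferon-inducible ligands of CXCR3, were at 18.3 and 45.5 CPM and at 7.63 and 15.7 CPM, and Ccl6 (9.25 and 24.1 CPM) and Ccl9 had log2 ratios of 1.38 and 1.11. Cxcl10 and Ccl6 were under 10 CPM in WT members and were compared through cit members alone. From the lowest to the highest range of the maturation sum, the log2 ratio of Cxcl9 was 3.35, 0.77, -0.73 and 0.47. That of Cxcl10 was 4.17, -1.62, 1.26 and 0.84. Ccl5 had a log2 ratio of 0.47 (0.45 to 0.49), under the fold of a call. The ratio of Ccl22 was not uniform, since cit was higher in the 2 lower ranges of the maturation sum and lower in the 2 upper ranges, where WT had 86.7 and cit 25.5 CPM in the uppermost. Without the members over the limit given below, Ccl22 stood at 11.2 and 9.43 CPM, a log2 ratio of -0.25 (-0.75 to 0.24), and was not called.

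Among MHC class II genes, H2-Aa was lower in cit, and March1 (0.97, 0.81 to 1.14) and H2-Ob (0.76, 0.54 to 0.99) were higher. The partner chain gene H2-Ab1 was at 2612.5 CPM in WT and 3861 in cit (log2 ratio 0.56, 0.54 to 0.59), and H2-Eb1 was at 3670 and 5218 CPM (0.51, 0.49 to 0.53), both under 1.5-fold. In resting cells their ratios were 0.23 and 0.30. Ciita, at 333 and 338 CPM, and H2-Eb2 were not called, but Ciita was lower in cit in each of the 4 ranges of the maturation sum, with log2 ratios of -0.15, -0.48, -0.34 and -0.86 from the lowest to the highest. Within each of the 4 ranges of the maturation sum, the log2 ratio of H2-Ab1 lay between 0.21 and 0.37. With those ranges given the same weight in both libraries, the ratios of March1 (0.55) and H2-Ob (0.41) were under 1.5-fold.

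In the maturation lists, several calls rested on the members rich in genes of mature cells with cDC1 genes, whose limit is given below. None of 18 NF-κB genes and none of 16 cholesterol genes was called in either direction, where 5.86% and 3.82% of all genes were. Of the 15 migration genes, 1 was called, Arhgap31, a GTPase-activating protein, at 608 CPM in WT and 334 CPM in cit. Arhgap31 is of set A, the genes that chose the members over that limit, and without them it was at 292 and 246 CPM, a log2 ratio of -0.25. Of 9 costimulatory genes, Tnfrsf4 (OX40; 116 and 67.5 CPM) and Cd80 (147 and 91.0 CPM) were lower in cit, where Tnfrsf4 (-0.36) was under 1.5-fold and Cd80 (-0.82) past it without those members. Among 12 checkpoint genes Tgfb1 and Havcr2 were higher and the poliovirus receptor gene Pvr and Vsig10 lower. Without those members Havcr2 (0.85) and Vsig10 (-0.67) were past 1.5-fold, and Tgfb1 (0.48) and Pvr (-0.01) were not. Vsig10 was at -0.52, under 1.5-fold, with ranges of the maturation sum given the same weight. Of the 17 JAK-STAT genes, Stat4, Il2ra and Socs1 were lower, and of 11 cytokine genes Il18 was higher and Il15ra lower. Without those members Stat4 (-0.69) and Il2ra (-0.72) were past 1.5-fold, and Socs1 (-0.55), Il18 (0.51) and Il15ra (-0.06), itself of set A, were not. Il2ra was at -0.29 with ranges of the maturation sum given the same weight and at 0.15 with at most 1 UMI of further cDC1 genes.

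**Figure D4:**
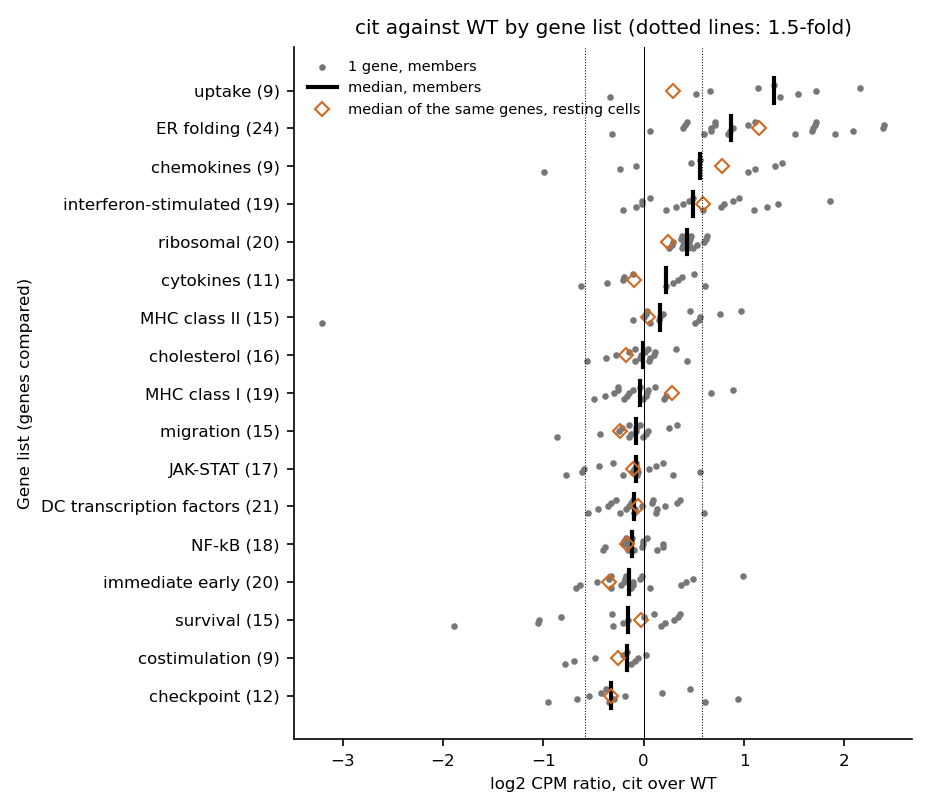
Each grey point is the log2 CPM ratio of cit over WT members for 1 gene of a list, the bar is the list median in members and the open diamond the median of the same genes in resting cells; numbers in brackets are genes compared, dotted lines mark 1.5-fold and H2-Aa is drawn at the left edge. ER folding and uptake genes lie to the right, with the diamond of the uptake list near 0.3 and that of the ER folding list beyond 1.

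Survival genes had 4 calls of 15, all lower in cit members, where 3.82% of all genes compared were lower. The 4 were Bcl2l14 (log2 ratio -1.89), Serpinb9 (-1.06), Serpinb6b (-1.05) and Bcl2l1, which encodes BCL-XL (-0.82). Of these, Bcl2l14, Serpinb9 and Serpinb6b stood at 550, 459 and 369 CPM in WT mature cells with cDC1 genes against 124, 159 and 139 CPM in WT members. Without the members over the limit given below, Bcl2l14 was at -0.43, under 1.5-fold, and Serpinb9 (-0.63), Serpinb6b (-0.71) and Bcl2l1 (-0.68) were past it. Bcl2l14 and Serpinb9 are of set A, which chose the members left out. The prosurvival genes Mcl1 (433 and 375 CPM) and Bcl2a1b (861 and 1060 CPM) were not called. The Bcl2a1 genes are near-identical copies that can share reads.

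In the other lists, Pdia3 and Calr, which also belong to the ER folding list, were the class I genes called higher, and Bcl11a was the transcription factor. Of 20 ribosomal genes, 3 were called higher, with a median of 0.44 in members and 0.24 in resting cells. Of 20 immediate early genes, which respond to handling of tissue, Fosb was higher and Zfp36 and Klf6 were lower. Among all genes compared in members, 5.86% were higher in cit and 3.82% lower. Without the members over the limit given below, Bcl11a (0.52) and Klf6 (-0.51) were under 1.5-fold. In resting cells none of the 20 ribosomal genes was called, where 222 of all 8499 genes compared were called higher and 203 lower, and Bcl11a was level. The part of ribosomal protein and immediate early genes in the comparison was not tested.

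Of the 10 genes with the lowest ratios, H2-Aa apart, 6 were more abundant in WT mature cells with cDC1 genes than in WT members by at least 2-fold. Mab21l3 was at 80.2 CPM in WT members and 11.0 in cit members (log2 ratio -2.87, -3.23 to -2.53), and at 477 CPM in the WT mature cells with cDC1 genes. Laptm4b, a lysosomal membrane protein, was at 97.2 and 17.4 CPM (-2.48, -2.77 to -2.20) against 464. Gclc, the catalytic subunit of the first enzyme of glutathione synthesis, was at 372 and 85.9 CPM (-2.11, -2.24 to -1.99) against 1728. Bcl2l14, Aff3 and Ttc39a were the others. The direction of Aff3 turned without the members over the limit given below, at 3.82 CPM in WT and 11.5 in cit (log2 ratio 1.59). Of the 6, Gclc alone reached the 50 CPM asked of these genes in both libraries.

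The other named genes of this group were not of that kind. Ryr3, an intracellular calcium release channel, was at 383 and 127 CPM (log2 ratio -1.59, -1.70 to -1.49), and at 52.5 CPM in WT mature cells with cDC1 genes. Efna5, an ephrin ligand, was at 64.0 and 22.1 CPM (-1.53, -1.80 to -1.28) against 14.4 CPM. Dkk2 was likewise at 95.8 CPM in the WT mature cells with cDC1 genes, under its level in WT members. Ryr3 was also lower in cit resting cells, at 20.4 against 89.2 CPM in WT.

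The mature cells with cDC1 genes met the same rule as the members except for its cDC1 limit. In WT they numbered 389 of the 1882 mature cells (20.7%), and in cit 80 of 1226 (6.53%). Their median depth was 11417 UMIs in WT and 8147 in cit, above that of members, so that a deeper cell has more chances to show a cDC1 UMI and leave the class. Irf8, the factor of cDC1, was at 315 and 469 CPM in them and at 102 and 84.4 CPM in members, and Sirpa, a cDC2 receptor, at 96.2 and 131 against 227 and 251.

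Some WT members had genes abundant in these cells at levels close to theirs. Genes of at least 200 CPM in WT mature cells with cDC1 genes and at least 2-fold above WT members numbered 57, without the genes of the rule, and were split by alphabet into sets A and B. WT members with over 120 UMIs of set A per 10000 numbered 246 (16.5%, 14.6 to 18.5%), and cit members 93 (8.12%, 6.60 to 9.85%). Set B, which did not choose them, had a median of 266 UMIs per 10000 in those WT members, 55.3 in the other WT members and 271 in the WT mature cells with cDC1 genes. In cit the values were 113, 45.3 and 48.6, so that the median of the cit members over the limit was above that of the cit mature cells with cDC1 genes. The latter differed from the other cit members in other values, with Mab21l3 at 101 against 2.56 CPM and Irf8 at 469 against 58.5 CPM. The list was drawn from these same cells and is a description of them.

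**Figure D5:**
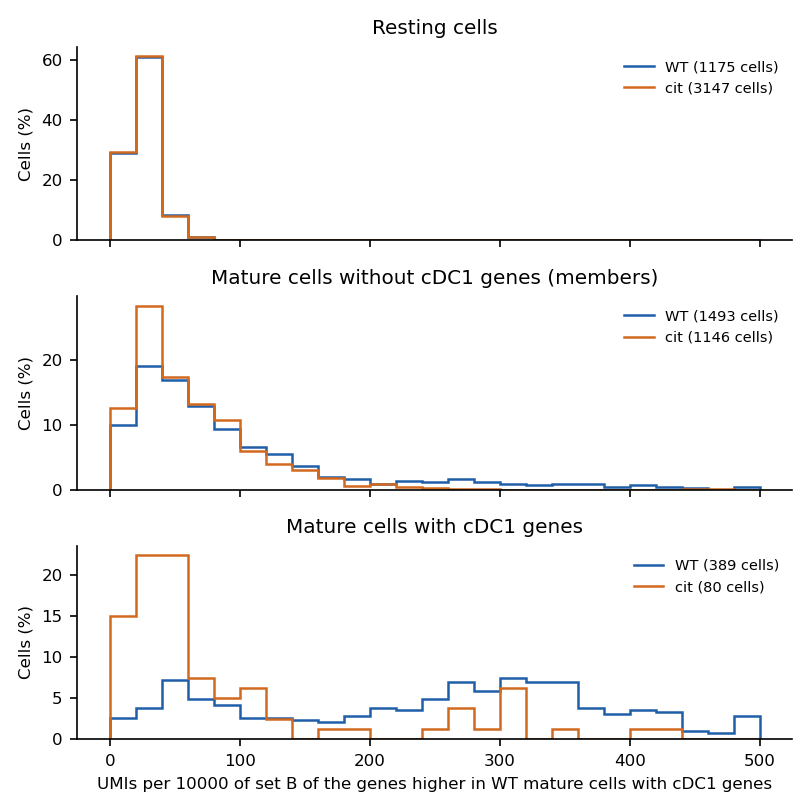
The horizontal axis gives UMIs of set B per 10000 UMIs of a cell in steps of 20 (the last step holds all higher values), and the vertical axis the percentage of cells of a class, by library. WT members have a tail above 200 that overlaps the WT mature cells with cDC1 genes, cit members have a smaller one, and no resting cell reaches 180.

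Several genes with low ratios in cit were more abundant in the members over the limit. Gclc, of set B, was at 1709 CPM in WT members over the limit and 90.2 CPM in those at or under it, and Mab21l3, also of set B, at 443 and 3.82 CPM. Ccl22 was in neither set and stood at 151 CPM over the limit and 11.2 CPM at or under it in WT, and at 109 and 9.43 CPM in cit. Sirpa went the other way, at 51.4 and 264 CPM in WT.

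Without the members over the limit, 1247 WT and 1053 cit members remained, and 429 genes were called higher and 242 lower in cit. Of the 321 genes called lower among all members, 157 were called again, and of the 492 called higher, 377. Gclc then had a log2 ratio of -0.65 (-0.84 to -0.47), Bcl2l14 of -0.43 (-0.77 to -0.10) and Laptm4b of 0.21 (-0.39 to 0.79). Bcl2l14 and Laptm4b are of set A, which chose the members left out, so that these ratios are not independent of that choice. In contrast, Ryr3 (-1.75), Efna5 (-1.65), H2-Aa (-6.41), Hspa5 (1.54) and Ptger3 (1.86) had ratios within 0.2 log2 units of those among all members.

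Members varied among themselves along the maturation sum, which is the sum of the genes of the rule and is given as a description. The sum of Ccr7, Fscn1, Socs2 and Cacnb3 per 10000 UMIs had a median of 27.6 in WT members and 24.3 in cit members. Cut at the quartiles of all members together (16.3, 26.0 and 37.6), the lowest range held 323 WT members (21.6%, 19.6 to 23.8%) and 337 cit members (29.4%, 26.8 to 32.1%), and the highest 408 (27.3%) and 252 (22.0%).

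Several genes the rule did not use followed the sum in either library. From the lowest to the highest range, Ccl5 stood at 1365, 3780, 5500 and 8278 CPM in WT and at 2962, 5379, 9181 and 14150 CPM in cit. H2-Ab1 ran the other way, at 4447, 3147, 2088 and 1062 CPM in WT and at 5691, 3940, 2422 and 1373 CPM in cit. Ciita went from 638 to 95.4 CPM in WT and from 573 to 52.7 in cit. Tnf and Epsti1, an interferon-inducible gene, were highest in the uppermost range, Tnf at 335 and 494 CPM. Relb, Cd83 and Il4i1 differed little above the lowest range, with Relb at 1820, 2075, 1939 and 1853 CPM in WT.

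With the 4 ranges given the same weight in both libraries, 284 genes were called higher in cit and 237 lower. Ccl5 then had a log2 ratio of 0.74, and cit exceeded WT by 1.5-fold or more in the lowest and the 2 highest ranges. Ptger3 had a ratio of 1.68, Plac8 of 1.30, Hspa5 of 1.48 and Cd209a of 1.71. From the lowest to the highest range, the log2 ratio of Hspa5 was 1.85, 1.54, 1.42 and 0.63, and in the uppermost range Hsp90b1 (0.53), Pdia3 (0.41) and Calr (0.10) were under 1.5-fold. With the same weight for each range, the ER folding list had 17 of 24 genes called higher and the uptake list 5 of 8.

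Cell-to-cell variation was measured as variance over mean of UMIs after thinning members to 3000 UMIs, which kept 1306 WT and 1012 cit members. The median gene had a value of 1.17 in WT and 1.15 in cit. Ranked by the lower of the values of the 2 libraries, the first 10 genes were Malat1, Ccl5, Cd74, Tmsb4x, Actb, H2-Eb1, Cst3, Epsti1, H2-Ab1 and Crip1. For Ccl5 the value was 32.7 in WT and 35.0 in cit at means of 14.8 and 22.9 UMIs, so the chemokine was unevenly spread over members. For Cst3, a cysteine protease inhibitor, it was 21.6 and 10.0, and for Epsti1 13.2 and 9.05. Both were also more abundant in WT mature cells with cDC1 genes, at 7711 and 8410 CPM against 1734 and 3709 in WT members. Il12b, at 7.54 and 14.6, and H2-M2, at 7.39 and 8.44, followed just outside the 10. The order within 1 library differs, with Dkk2 at 11.5 in WT above H2-Ab1 (8.95) and Crip1 (7.85), and Il12b in cit above 7 of the 10.

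The cells at the limits of the rule differed from those well inside it. With a maturation sum of 2 to 3, just outside, 437 WT and 372 cit cells had Apol7c at 211 and 259 CPM, and with a sum of 4 to 5, just inside, 214 and 190 cells had it at 486 and 563 CPM, where all members stood above 1200. Wdfy4, a gene of cross-presentation, went from 974 and 758 CPM just outside to 457 and 626 just inside. At the cDC1 limit, the 197 WT members with 1 cDC1 UMI had Gclc at 1016 CPM, close to the 1152 CPM of the 106 WT cells with 2 such UMIs just outside, whereas the 1296 WT members with none had 254 CPM. In cit the 91 members with 1 cDC1 UMI had Gclc at 48.8 CPM, below the 90.5 CPM of the 1055 members with none, and the 35 cells with 2 such UMIs had 286 CPM.

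Sums of markers of other cell types differed widely. The T cell list summed to 13.5 CPM in WT and 12.0 in cit, with 3 of its 10 genes at 0 in each, and the plasma cell list to 8.24 and 13.3 CPM. The erythroid list summed to 25.8 and 12.7 CPM, led by Car2. The B cell list reached 181 and 200.5 CPM, led by Ighm, where resting cells had 148 and 152 CPM, and the macrophage list 191 and 162 CPM, led by Adgre1, where resting cells had 275 and 242. In the comparison with resting cells, 2 of 4 B cell genes and 2 of 3 macrophage genes were at least 2-fold higher in members in both libraries. The remaining macrophage gene was at least 2-fold lower, and no B cell gene was. Over all genes compared, 10.7% were higher and 10.3% lower. The NK list was carried by Ccl5, at 4888 and 6763 CPM in members. Monocyte genes summed to 149 CPM in WT and 312 in cit, led by Plac8, and to 872 CPM in WT and 1149 CPM in cit resting cells. The cDC1 genes of the rule summed to 20.03 and 13.3 CPM, and the other cDC1 genes to 769 and 858 CPM, led by Batf3.

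Of 14 genes of the cDC2 list, 6 were at least 1.5-fold higher in cit than in WT members and none was lower, with a median log2 ratio of 0.44. Over all 8402 genes compared in members, 5.86% were higher in cit and 3.82% lower. In resting cells none of 16 was called in either direction. Over all 8499 genes compared there, 222 were higher in cit and 203 lower, so a count of none is close to that share. The 6 were Cd209a, Clec4a2, Clec4a4 and Itgam, which also belong to the uptake list, Ffar2, which with Sirpa chose the resting cells, at 58.6 and 96.4 CPM, and Cd300a, an inhibitory receptor, at 52.0 and 123 CPM. Cd209a, Clec4a2 and Itgam were under 10 CPM in WT members and could be called in 1 direction only, so the counts in members and in resting cells are not alike. The median of 0.44 includes them. With ranges of the maturation sum given the same weight, Ffar2 (0.35) and Clec4a4 (0.27) were under 1.5-fold and Cd300a (0.81) was past it. The list summed to 1244 CPM in WT members and 1401 in cit members, led by Tnfrsf11a, and to 2313 and 2301 CPM in resting cells. Of the monocyte list Cd300e was at 2.24 and 11.7 CPM and Pparg, called lower, at 17.0 and 6.73, Tex2 of the plasmacytoid DC list at 13.3 and 22.2 CPM, and Wdfy4 of the other cDC1 genes at 209 and 322 CPM. Wdfy4 was under 1.5-fold without the members over the limit on set A (log2 ratio 0.54). The same held with ranges of the maturation sum given the same weight (0.29). The neutrophil list summed to 9.25 CPM in WT members and 61.8 in cit members, led by S100a8 and S100a9, and 121 of the 146 S100a9 UMIs of cit members came from 1 cell. In resting cells the list summed to 19.01 CPM in WT and 320 in cit, and 4 of 5 genes compared were higher in cit. Cox6a2, a plasmacytoid DC gene, had 5 UMIs in WT members and 320 in cit members, found in 7.50% of cit members. It was also found in 14.5% of cit resting cells against 0.34% of WT resting cells, and in 71.6% of WT and 63.7% of cit cells with 5 or more Siglech UMIs. Their part in the comparisons was not tested.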

How the data were processed

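Splenic DCs of 1 WT and 1 cit pool were profiled. The deposited values are counts of UMIs per gene and cell barcode, produced by the authors in Cell Ranger 5.0.1 against mm10 (GRCm38); the submitters' processing notes also name Seurat. The matrices held called cells, and the treatment of intronic reads is not given in the sources used here. The files carry no map from cells to mice. Rows counted as genes numbered 32285.

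Members were chosen on raw counts, with no further filter on cells and doublets kept. For each library the UMIs of a class were added up per gene and scaled to 1000000 (CPM). UMIs are not scaled by gene length, so levels were compared for 1 gene at a time. A gene was compared between libraries at 10 CPM or more in members of either library and called at 1.5-fold, and the programme was called at 2-fold in the same direction in both libraries. The genes that define the classes, of which 8 reached 10 CPM, were left out of the programme counts. A count of 0 was set to 3 UMIs for calls. With 1 library per genotype no test was made. Intervals (95%) were Clopper-Pearson for shares, Newcombe for differences of shares, exact Poisson for CPM and exact conditional binomial for ratios.

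The members and the 30 gene lists (17 of programme genes, 13 of markers) were chosen with earlier results of these data known. Genes named were the 5 markers and H2-Aa, the 10 highest and 10 lowest cit over WT ratios among genes of at least 50 CPM and the 20 highest and 10 lowest programme ratios among genes of at least 100 CPM (5 CPM added to both groups), the genes of a list past the fold or most abundant in it, and the 10 genes with the highest variance over mean. Genes without a name or with a repeated symbol were left out and counted. Other genes of the lists, and those in the parts on members over the limit on set A and on ranges of the maturation sum, were picked after their values were seen.

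Alternatives changed the limits of the rule, the cells counted, doublets (Scrublet in scanpy 1.11.5), depth, scaling, the minimum level and the fold. Python 3.11.15, numpy 2.4.6, scipy 1.17.1, pandas 2.3.3 and matplotlib 3.10.9 were used. A withheld item is not reported here.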

Additional observations from a re-analysis of the deposited data

Results flagged for a closer look

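Arhgap31, a GTPase-activating protein, went opposite ways in 2 classes. In members it stood at 608 CPM in WT and 334 CPM in cit, a log2 ratio of -0.86 (-0.93 to -0.79), whereas in resting cells it stood at 8.61 and 15.3 CPM, a log2 ratio of 0.83 (0.46 to 1.22). Without the members over the limit on set A, genes abundant in mature cells with cDC1 genes of which Arhgap31 is one, it was at 292 and 246 CPM in members, a log2 ratio of -0.25, and with 4 ranges of the maturation sum given the same weight the ratio was -0.52, both under 1.5-fold. The difference between the classes was not tested, since each genotype has 1 library.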

How the results depend on the processing

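The share of members depended on its limits, and cit was below WT under each of the 12 alternatives. In WT and cit the share was 20.9% and 11.2% with a maturation sum of at least 3, 14.6% and 7.05% with at least 8, 16.6% and 9.15% with no cDC1 UMI, and 3.44% and 2.09% with at most 1 UMI of further cDC1 genes, which left 269 and 241 members. It was 6.46% and 2.42% without cells carrying 2 or more UMIs of other cell types' lists, which left 112 and 61 members. Those lists include 7 genes at 10 CPM or more in members of both libraries, Ccl5 among them, and without these genes, chosen after seeing the data, the shares were 19.94% and 10.7%. Among cells of at least 1500 UMIs the shares were 20.6% and 10.7%, among cells with Flt3 or Zbtb46 22.9% and 11.5%, and without the members over the limit on set A 15.96% and 9.14%.

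Against 492 genes higher and 321 lower in cit, the counts were 984 and 1069 with at most 1 UMI of further cDC1 genes and 2167 and 1985 without cells carrying other lists' UMIs, both from few members. They were 122 and 109 at 50 CPM, 1811 and 1930 at 3 UMIs, and 136 and 90 at 2-fold. The count higher was 293 without the highest Scrublet scores, 325 with the mean over cells, and 284 with 4 ranges of equal weight, an alternative added after seeing the data. Leaving out the cit member with most UMIs, also added after seeing the data, gave 462 higher and 314 lower. Programme counts stayed within 1.5 times, at 804 to 1137 higher and 797 to 1086 lower.

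Among lists, the uptake genes called higher were 7 of 9 compared, against 4 of 4 with the limit on further cDC1 genes, 4 of 6 without the highest Scrublet scores, 1 of 2 at 50 CPM and 14 of 20 at 3 UMIs. Chemokines called higher were 4 of 9, against 2 of 6 without cells carrying other lists' UMIs, 0 of 2 at 50 CPM, and 6 of 9 without the highest Scrublet scores, thinned to 3000 UMIs, with the mean over cells and with 4 ranges of equal weight. Interferon-stimulated genes were 9 of 19, against 0 of 8 at 50 CPM and 4 of 19 at 2-fold, and ER folding genes 19 of 24, against 11 of 24 at 2-fold.

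Of 1901 log2 ratios over 128 named genes and 15 alternatives, 1274 were within the counting interval of the value among all members, 600 moved out of it, and 27, of 22 called genes, changed sign. The cause was not tested. Without the members over the limit on set A, Aff3 was at 1.59 and Laptm4b, which is of set A and helped to choose the members left out, at 0.21. With at most 1 UMI of further cDC1 genes, Bcl11a was at -0.30, Clec4a2 at -0.66, Ctnnd2 at -0.31, Cxcl10 at -0.060, Cxcl9 at -0.046, Ifi47 at -0.73, Il2ra at 0.15, March1 at -0.13, Ptpre at -1.26 and Stmn1 at -0.44. Without cells carrying other lists' UMIs, Bcl11a was at -1.11, Cd300a at -0.30, Ctnnd2 at -0.015, Cxcl9 at -1.34, Entpd1 and Havcr2 at -0.49, Il18 at -0.060, March1 at -1.17, Ptpre at -0.093, Wdfy4 at -0.42, Pvr at 0.83, Socs1 at 1.25, Stat4 at 0.21, Tnfrsf4 at 0.42 and Zfp36 at 0.40. The 112 and 61 members behind the last set limit its precision. No paired analysis was possible because each genotype has 1 library, and no replicate could be left out.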
